A study of Mus musculus with 16 samples.

Results

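The oxidation of ketone bodies and of the branched-chain amino acids leucine, isoleucine and valine was followed through 10 genes in ventricular myocytes of pressure-loaded mouse hearts. The genes were taken by symbol from the 35682 rows of a count table: Bdh1, Oxct1 and Acat1 for ketone bodies, and Bcat2, Bckdha, Bckdhb, Dbt, Ppm1k, Bckdk and Ivd for branched-chain amino acids. Each symbol matched 1 row, and all 10 rows passed the filter on low counts. The samples came from 16 animals, 8 carrying the transgene B3AR-Tg (its name refers to a beta-adrenergic receptor subtype) and 8 wild-type (WT) littermates. Animals of both genotypes had undergone TAC, transverse aortic constriction, in which the aorta is narrowed so that the left ventricle pumps against a raised pressure, and were sampled 9 weeks later. No unoperated group was analysed here, so the TAC response itself is shared by both groups and is not a comparison. Per the labels' protocols, myocytes were freed by perfusing the heart, left on plates for an hour and lysed, and stranded, ribosome-depleted total RNA libraries were sequenced from both ends. The age and sex of the animals, the severity of the constriction and the promoter that drives the transgene are not given in the sources used here. The labels name each sample a biological replicate, so 1 library is read as 1 animal.

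Ketone bodies reach the heart from the liver. In mitochondria BDH1 turns beta-hydroxybutyrate into acetoacetate, OXCT1 (also called SCOT) transfers coenzyme A to acetoacetate, and ACAT1 splits acetoacetyl-CoA into acetyl-CoA. The branched-chain amino acids are first transaminated by BCAT2 and then committed to oxidation by the branched-chain ketoacid dehydrogenase complex, whose E1 subunits are BCKDHA and BCKDHB and whose E2 core is DBT. The kinase BCKDK phosphorylates E1 and holds the complex inactive, and the phosphatase PPM1K (PP2Cm) removes that phosphate. IVD then oxidises isovaleryl-CoA in the leucine branch, and ACAT1 serves the last step of the isoleucine branch as well. Failing hearts are known both for greater ketone use and for lower branched-chain amino acid oxidation.

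None of the 10 genes passed the test for a difference between the genotypes (edgeR's quasi-likelihood test, Benjamini-Hochberg adjusted p under 0.05 over 10945 tested genes), against 537 genes or 4.91% of all those tested. The gene nearest the threshold was Ppm1k, which was 36.5% higher in B3AR-Tg on average (95% interval 13.0 to 64.8%) with an adjusted p of 0.0510. The estimates nearest 0 were those of the ketone enzymes Oxct1 and Acat1, at -0.01 and 0.01 on the log2 scale, while the third, Bdh1, stood at 0.09. Of the 10 estimates 8 were above 0, or 80%, against 51.1% of all tested genes, and their median was 0.13 against 0.01. At an unadjusted p under 0.05 the table held 3 of the 10 (Ppm1k, Bckdha and Bckdhb), against 19.3% of all tested genes. No gene of the 10 had groups of animals that did not overlap, as 0.448% of all tested genes did.

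**Figure D1:**
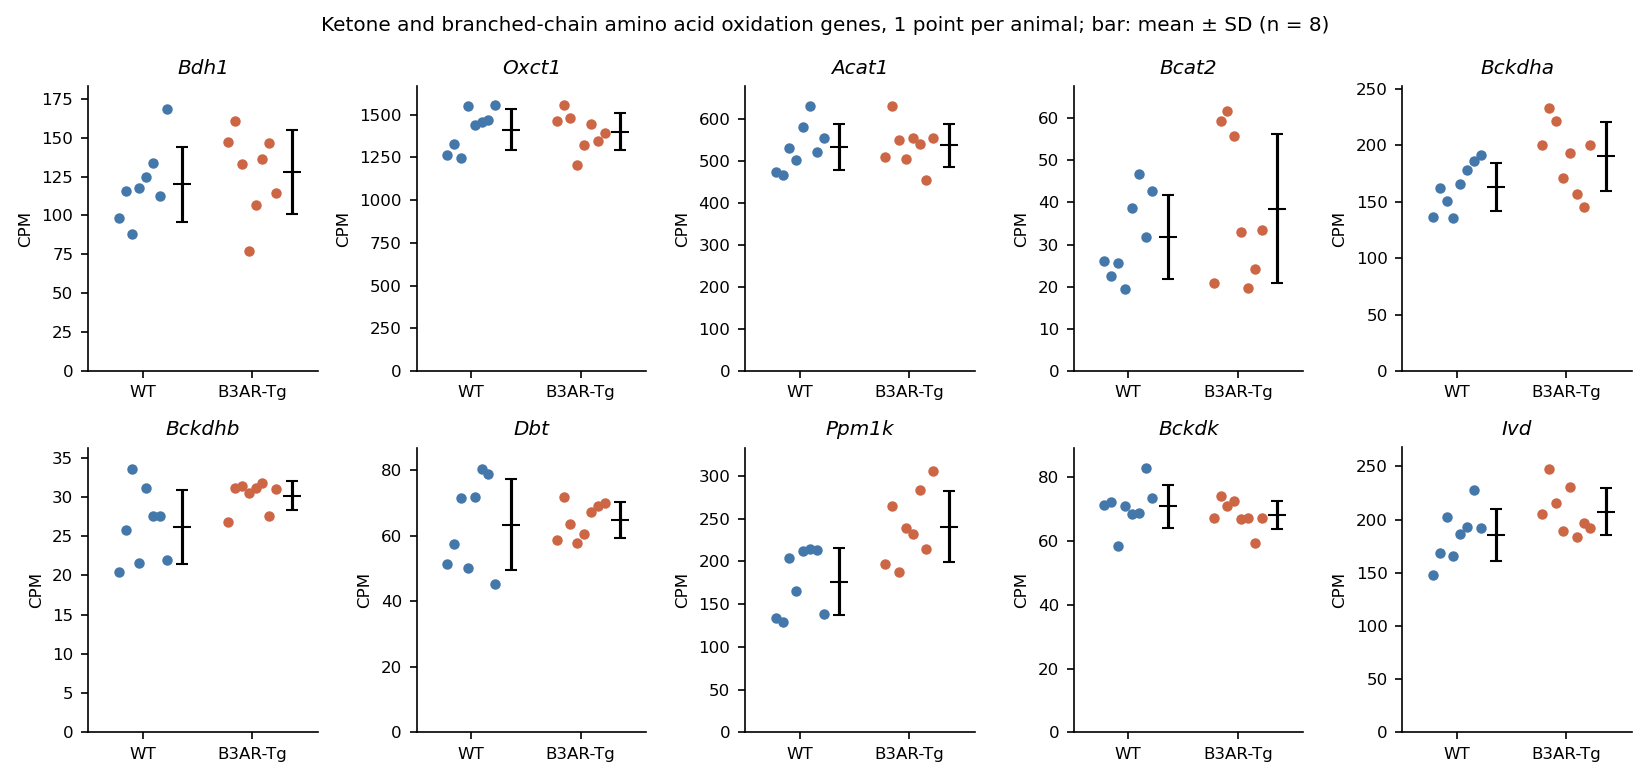
Library-scaled counts in CPM (vertical axes starting at 0) of the 10 genes, 1 point per animal, WT in blue and B3AR-Tg in orange (8 animals each), with the mean and SD as a bar beside the points. Ppm1k shows all 8 B3AR-Tg animals above the WT median of 184.8 CPM, which lies in a gap between WT animals. The points of Oxct1 and Acat1 cover nearly the same range in both genotypes.

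The libraries held 5985335 to 14365864 counts, levels are given as counts scaled to the library (CPM), and the lowest count of any of the 10 genes in any animal was 170. Myocyte markers were high in all animals (7 markers summed to 37059 to 48002 CPM in WT and 44335 to 52981 in B3AR-Tg). The mean sum was 42424 CPM in WT and 48879 in B3AR-Tg. Of these 7 markers, 6 had estimates above 0 and 1 below, and 1 passed the test as higher in B3AR-Tg. Fibroblast markers were low and lower in B3AR-Tg, at 43.9 to 181 CPM summed over 7 markers in WT and 11.7 to 62.0 in B3AR-Tg. All 6 tested had estimates below 0, and 5 of these passed the test. Endothelial markers (6 genes) summed to 74.1 to 113 CPM in WT and 34.1 to 137 in B3AR-Tg. All 6 had estimates below 0, with a median log2 fold change of -0.50, and 2 passed the test. Mural markers (5 genes) summed to 78.9 to 139 and 42.8 to 138 CPM and none passed the test. Leukocyte markers (6 genes) summed to 4.11 to 14.2 and 0.716 to 6.00 CPM. Adipocyte markers were near 0, with Adipoq at 0 counts in 10 of the 16 animals, Cidec in 10 and Plin1 in 12, and the fibroblast marker Tcf21 was at 0 in 13. In such bulk samples fewer cells of a type and less RNA per cell cannot be told apart. The 5 load genes tested all fell in B3AR-Tg: Nppa, the atrial natriuretic peptide gene, stood at 563 ± 556 CPM (SD, n = 8) in WT and 35.4 ± 36.5 in B3AR-Tg, and Myh7, the slow myosin heavy chain, at 2536 ± 2063 and 621 ± 212. The Adrb3 row, the mouse gene for the beta-3 adrenergic receptor, held 0 to 4 counts in WT and 0 to 3 in B3AR-Tg, so it does not check the genotype labels. The part of these differences in the values below was not tested beyond the fits in the closing section.

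Because Ppm1k and Bckdk encode the opposing phosphatase and kinase of the complex and differed most from each other in these samples, their upstream sequences are shown here, with that of the E1 subunit gene Bckdhb for comparison. They are from RefSeq (GRCm38.p6), read 5′ to 3′ toward the gene, cut to the bases outside the RefSeq gene, and in lower case. Capitals mark AGGTCA, the half-site bound by many nuclear receptors, and CCAAT, each on either strand. No overlap between the motifs occurs in them. For each sequence shown, the bases just after the listed start were not found in that gene's GENCODE M21 transcripts. These starts are therefore not borne out by that annotation.
Ppm1k, chr6:57535553-57535737, minus strand: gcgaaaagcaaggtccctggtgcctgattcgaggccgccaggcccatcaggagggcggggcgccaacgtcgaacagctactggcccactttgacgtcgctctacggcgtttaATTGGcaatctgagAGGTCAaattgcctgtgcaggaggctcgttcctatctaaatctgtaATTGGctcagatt
Bckdk, chr7:127903823-127904072, plus strand: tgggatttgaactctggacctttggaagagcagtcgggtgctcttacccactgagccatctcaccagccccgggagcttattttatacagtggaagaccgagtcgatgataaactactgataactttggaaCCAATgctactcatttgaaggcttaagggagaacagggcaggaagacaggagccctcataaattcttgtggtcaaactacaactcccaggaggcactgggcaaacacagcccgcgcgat
Bckdhb, chr9:83924887-83925110, plus strand: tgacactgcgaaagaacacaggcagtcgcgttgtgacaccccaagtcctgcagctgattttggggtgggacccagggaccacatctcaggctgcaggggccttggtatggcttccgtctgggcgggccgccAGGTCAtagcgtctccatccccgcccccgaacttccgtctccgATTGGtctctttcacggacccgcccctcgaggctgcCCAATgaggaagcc
Of the 10 genes 8 matched the RefSeq table, with Acat1 and Dbt unmatched. In the 250 bases before the listed starts (11 windows, since some genes list several) AGGTCA stood in 2 windows, those of Ppm1k (at -124) and Bckdhb (at -119), or 18.2%, against 14.0% of the 32817 windows in the table. CCAAT stood in 4 of the 11 (Ppm1k, Bckdk, Bckdhb and Ivd), or 36.4%, against 33.8%. Both shares are near the background. The extended site TNAAGGTCA, associated with estrogen-related receptors, was in none of the 11, against 1.14% of windows, and every copy of it also holds AGGTCA. A match describes letters only and is no measure of binding.

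Levels between genes were compared per length, as CPM per kilobase of the longest coding transcript in GENCODE M21. On that scale 2 of the 3 ketone enzymes led: Oxct1 stood at 401 ± 34.2 (SD, n = 8) in WT and Acat1 at 157 ± 16.3. Bckdha followed at 86.0 ± 11.3, then Ivd at 50.6 ± 6.69, Bdh1 at 38.4 ± 7.79 and Ppm1k at 31.7 ± 6.98. The remaining 4 lay close together, Bckdk at 20.8 ± 1.98, Dbt at 19.2 ± 4.20, Bckdhb at 17.7 ± 3.19 and Bcat2 at 15.2 ± 4.79, so that neighbours in that lower end did not differ beyond their spread. Ivd, Bdh1 and Ppm1k did not separate from their nearest neighbour by more than their summed SDs either. In B3AR-Tg the first 4 ranks were the same, while Ppm1k (43.3 ± 7.49) stood above Bdh1 (40.9 ± 8.67) by less than their spread. Length comes from 1 transcript per gene, so the order is approximate where several isoforms are used.

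Bdh1 (ENSMUSG00000046598), the beta-hydroxybutyrate dehydrogenase, ranged from 87.8 to 168.3 CPM in WT (median 116.9) and from 76.8 to 160.7 in B3AR-Tg (median 134.8). The lowest and the second highest of all 16 values were both in B3AR-Tg animals, and the groups overlapped almost fully. A log2 fold change of 0.09 ± 0.137 (SE) resulted, with an edgeR adjusted p of 0.759, and the interval ran from -0.19 to 0.38.

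Oxct1 (ENSMUSG00000022186), which makes ketone use possible outside the liver, was the most abundant of the set and among the steadiest. WT animals ran from 1246 to 1555 CPM (median 1448) and B3AR-Tg animals from 1208.5 to 1556.5 (median 1417), so both groups filled the same range. The mean was 1413 ± 121 CPM (SD, n = 8) in WT and 1401 ± 108.5 in B3AR-Tg, a coefficient of variation of 8.53% and 7.75%. The log2 fold change of -0.01 had an SE of 0.0754 and an interval of -0.17 to 0.14 (edgeR adjusted p = 0.954). Its sign turned with the scaling, to 0.06 with library size alone. That scaling also moved the median log2 fold change of all tested genes, from 0.01 to 0.08.

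Acat1 (ENSMUSG00000032047), the mitochondrial thiolase that ends both pathways, behaved much like Oxct1. WT animals ran from 467.0 to 632.1 CPM (median 527.4) and B3AR-Tg animals from 455.4 to 631.6 (median 545.8). The highest values of both groups were nearly equal, and the interval of the log2 fold change was -0.15 to 0.18 (edgeR adjusted p = 0.959). The 3 ketone enzymes therefore held 0 calls and 0 genes with an unadjusted p under 0.05.

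Bcat2 (ENSMUSG00000030826), the mitochondrial transaminase, was the most variable of the 10. It ran from 19.5 to 46.8 CPM in WT (median 29.0) and from 19.8 to 61.7 in B3AR-Tg (median 33.2). In B3AR-Tg, replicates 2, 3 and 4 stood at 59.3, 61.7 and 55.9 CPM, above all WT animals, and the other 5 lay inside the WT range. The coefficient of variation was 31.4% in WT and 46.0% in B3AR-Tg. The log2 fold change of 0.28 carried an SE of 0.244 (edgeR adjusted p = 0.566), and its interval of -0.23 to 0.79 spanned both directions.

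The E1 alpha gene Bckdha (ENSMUSG00000060376) ran from 135.7 to 191.8 CPM in WT (median 164.2) and from 145.4 to 233.6 in B3AR-Tg (median 196.8). Above all WT animals stood 5 of the 8 B3AR-Tg animals, and the other 3 lay within the WT range. On the log2 scale the difference was 0.22 ± 0.103 (SE), with an unadjusted p of 0.0434 and an adjusted p of 0.245 in edgeR's test.

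The E1 beta gene Bckdhb (ENSMUSG00000032263) ran from 20.4 to 33.6 CPM in WT (median 26.7) and from 26.8 to 31.8 in B3AR-Tg (median 31.1). All 8 B3AR-Tg animals lay above the WT median but none above the highest WT animal, so the genotypes differed more in how low animals reached than in how high. Its log2 fold change was 0.21 ± 0.0986 (SE; edgeR unadjusted p = 0.0493, adjusted p = 0.257). The coefficient of variation was 18.0% in WT and 6.27% in B3AR-Tg.

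The E2 gene Dbt (ENSMUSG00000000340) had means that differed by less than their spread, 63.4 ± 13.9 CPM (SD, n = 8) in WT and 64.9 ± 5.43 in B3AR-Tg. WT animals ran from 45.4 to 80.3 CPM (median 64.6) and B3AR-Tg animals from 57.8 to 72.0 (median 65.4), entirely inside the WT range. Its log2 fold change was 0.04 with an interval of -0.20 to 0.27 (edgeR adjusted p = 0.901). As for Bckdhb, WT animals were spread more widely, with a coefficient of variation of 21.8% against 8.37%. The difference in spread between genotypes was not tested. Over all tested genes the median coefficient of variation was 19.3% in WT and 18.7% in B3AR-Tg, and over the 10 genes it was 15.6% and 10.1%.

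The balance of the subunits per length overlapped between the genotypes. Bckdha stood above Bckdhb by a median ratio of 4.96 in WT and 4.93 in B3AR-Tg. The ratio of Dbt to Bckdhb had a median of 1.04 in WT (0.927 to 1.31) and 0.965 in B3AR-Tg (0.847 to 1.12), with 3 B3AR-Tg animals below all WT animals. These ratios are descriptions with no test.

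Ppm1k (ENSMUSG00000037826), the phosphatase that activates the complex, had the largest estimate of the set. WT animals ran from 129.4 to 214.9 CPM (median 184.8) and B3AR-Tg animals from 187.2 to 305.5 (median 235.7). All 8 B3AR-Tg animals lay above the WT median and 5 lay above all WT animals. The other 3, replicates 1, 3 and 7, stood at 197.5, 187.2 and 214.0 CPM, inside the WT range. The WT median itself fell in a gap between a lower and an upper set of WT animals. B3AR-Tg replicates 1 and 3 lay in that gap, below every WT animal of the upper set. The means were 176.4 ± 38.8 CPM (SD, n = 8) in WT and 240.5 ± 41.6 in B3AR-Tg. The log2 fold change was 0.45 ± 0.131 (SE; edgeR unadjusted p = 0.00252, adjusted p = 0.0510). The call depended on the setting: the adjusted p ran from 0.0131 (library size as the only scaling) to 0.928 (load score as a covariate, log2 fold change -0.08). The first of these settings also raised the median log2 fold change of all tested genes, from 0.01 to 0.08. With 1 animal left out at a time Ppm1k passed for WT replicates 3, 5, 6 and 7 and B3AR-Tg replicates 1, 3 and 7, and not for the other 9. At an adjusted p under 0.1 Ppm1k was the only one of the 10 to pass, against 8.30% of all tested genes.

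Bckdk (ENSMUSG00000030802), the kinase that switches the complex off, showed no such difference. WT animals ran from 58.5 to 83.0 CPM (median 71.0) and B3AR-Tg animals from 59.4 to 74.0 (median 67.3), all inside the WT range. Its log2 fold change was -0.05 ± 0.0721 (SE) with an interval of -0.20 to 0.10 (edgeR adjusted p = 0.727). With library size as the only scaling the estimate was 0.02, where the median of all tested genes was 0.08.

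The ratio of Ppm1k to Bckdk per length joins both. It ran from 1.10 to 2.14 in WT (median 1.50) and from 1.62 to 2.78 in B3AR-Tg (median 2.16). All 8 B3AR-Tg animals stood above the WT median and 4 stood above all WT animals. The ratio was formed after the values of both genes were known and carries no test, and transcript levels do not measure the phosphorylation of the complex.

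Ivd (ENSMUSG00000027332), the isovaleryl-CoA dehydrogenase, ran from 148.4 to 227.9 CPM in WT (median 188.9) and from 183.3 to 247.7 in B3AR-Tg (median 201.1). In B3AR-Tg, 7 of 8 animals lay above the WT median and 2 above all WT animals. The log2 fold change was 0.16 ± 0.0886 (SE; edgeR unadjusted p = 0.0800, adjusted p = 0.329).

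**Figure D2:**
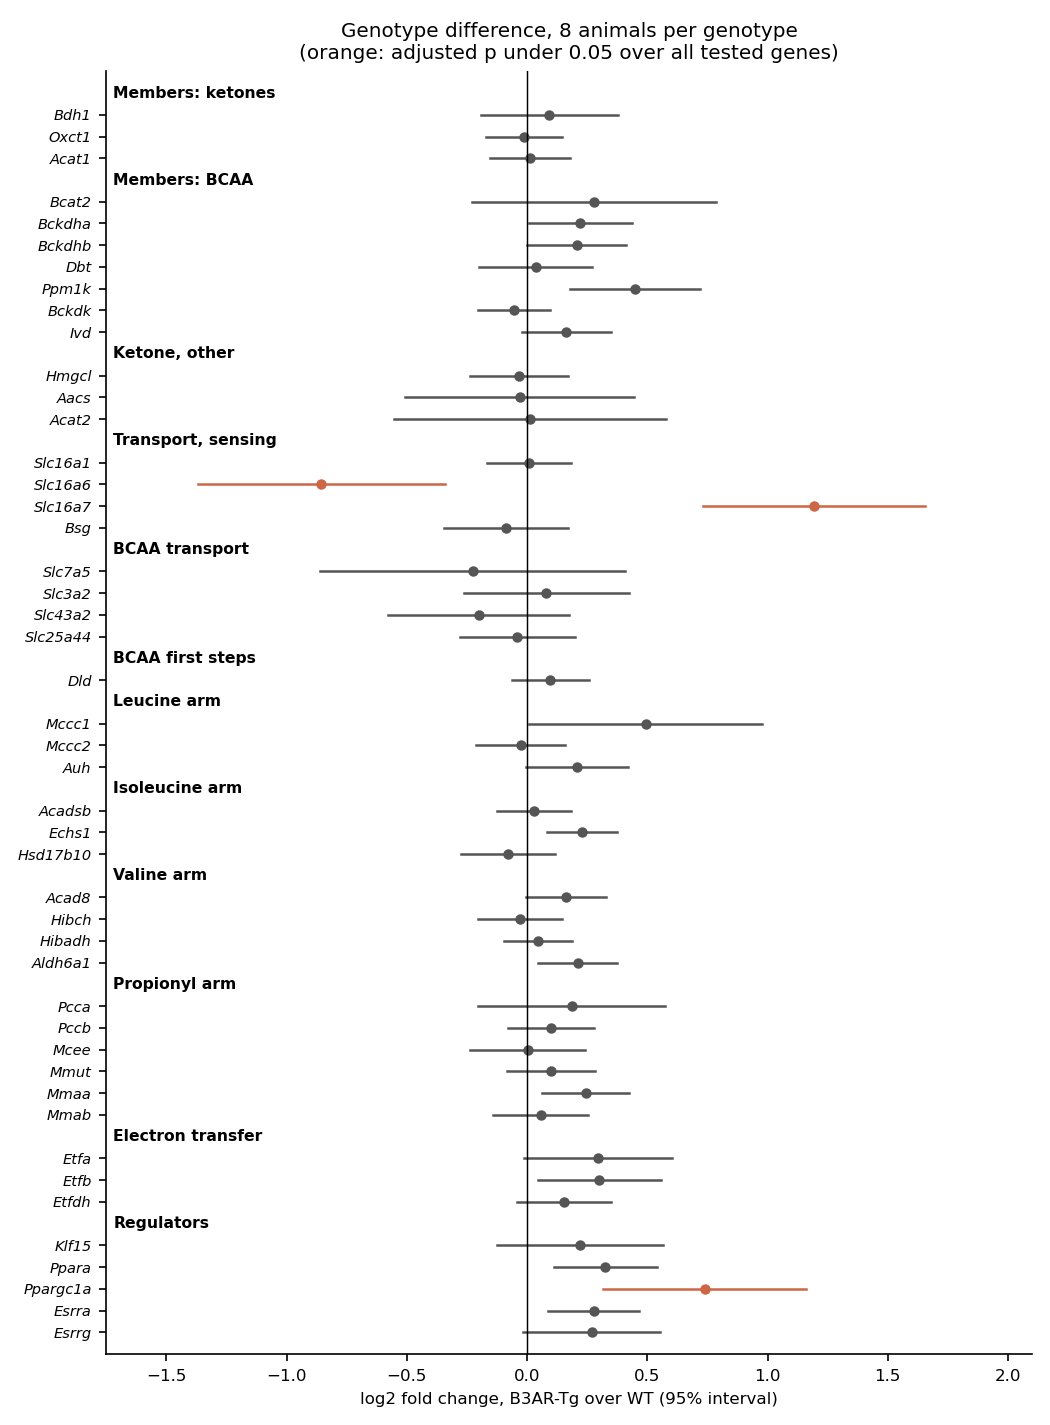
Log2 fold change of B3AR-Tg over WT (horizontal axis) with its 95% interval for the 10 genes and other tested genes of both pathways, grouped by role, 8 animals per genotype. Orange marks the 3 genes past the threshold, Slc16a7 and Ppargc1a to the right of 0 and Slc16a6 to the left.

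Beyond the 10 genes, 48 further genes of ketone and branched-chain amino acid metabolism, their transporters and their regulators were listed, and 37 of them passed the filter on low counts. Of these 37, 27 estimates were above 0 (73.0%) with a median log2 fold change of 0.10, and 3 passed the test, 2 higher and 1 lower, against 2.03% of all tested genes higher and 2.88% lower. For branched-chain amino acids alone (transport, first steps, the 3 branches and propionyl-CoA), 0 of 21 tested genes passed in edgeR's test, with 4 at an unadjusted p under 0.05 (19.3% of all tested genes were), and 15 of 21 estimates were above 0 (71.4%, against 51.1% of all tested genes). DESeq2 called 1 of the 21, Echs1, an enoyl-CoA hydratase, which is named because it was that only call. A reference list of 10 other mitochondrial genes had 7 estimates above 0 and a median of 0.15, with 1 call.

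The 3 genes that passed were 2 carriers and 1 regulator. Slc16a7 (ENSMUSG00000020102), the monocarboxylate transporter MCT2, which carries ketone bodies, lactate and pyruvate, ran from 2.59 to 9.37 CPM in WT (median 5.85) and from 8.98 to 18.1 in B3AR-Tg (median 13.1). In B3AR-Tg, 7 of 8 animals stood above all WT animals, and the eighth, replicate 3, overlapped the WT range. Slc16a7 rose by 1.19 ± 0.222 (SE) on the log2 scale (edgeR adjusted p = 0.00543). It kept its call without any single animal. The call was lost with the non-myocyte marker level as a covariate (1.18, edgeR adjusted p = 0.128) and with the load score (0.42, adjusted p = 0.716). Slc16a6 (ENSMUSG00000041920), a related carrier known for exporting ketone bodies from liver, ran from 4.24 to 17.5 CPM in WT (median 8.20) and from 3.36 to 7.79 in B3AR-Tg (median 4.94). Its groups overlapped over most of the B3AR-Tg range, and the call was near the threshold (log2 fold change -0.86 ± 0.247 SE, edgeR adjusted p = 0.0487). Without 1 animal at a time it was lost for 12 of the 16, and kept without WT replicates 2, 5 or 7 or B3AR-Tg replicate 7. It was also lost in 6 of 11 other settings, and the log2 fold change was -0.62 with the non-myocyte marker level as a covariate (edgeR adjusted p = 0.458) and -0.18 with the load score (adjusted p = 0.928). By contrast Slc16a1, the transporter MCT1, was the far more abundant carrier, at 95.3 CPM per kilobase in WT against 0.532 for Slc16a7, and its log2 fold change was 0.01 (edgeR adjusted p = 0.974). Slc16a1 was added for comparison after its values were seen.

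Ppargc1a (ENSMUSG00000029167), the coactivator PGC-1 alpha of mitochondrial genes, ran from 67.5 to 110 CPM in WT (median 87.1) and from 89.8 to 290 in B3AR-Tg (median 118). B3AR-Tg replicates 1 and 3 stood at 290 and 200.5 CPM, above the other 6 animals of their group. The log2 fold change was 0.74 ± 0.202 (SE; edgeR adjusted p = 0.0384), and it was 0.51 without B3AR-Tg replicate 1, where the call was lost. The call was lost for 10 of the 16 animals left out singly, and kept without WT replicates 1 or 3 or B3AR-Tg replicates 2, 4, 7 or 8. All 5 regulators had estimates above 0, with Ppargc1a the one called. Klf15, a transcription factor known to raise branched-chain amino acid catabolic genes in heart, stood at 21.4 ± 4.82 CPM (SD, n = 8) in WT and 24.9 ± 7.30 in B3AR-Tg, and its log2 fold change of 0.22 did not pass (edgeR adjusted p = 0.493).

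**Figure D3:**
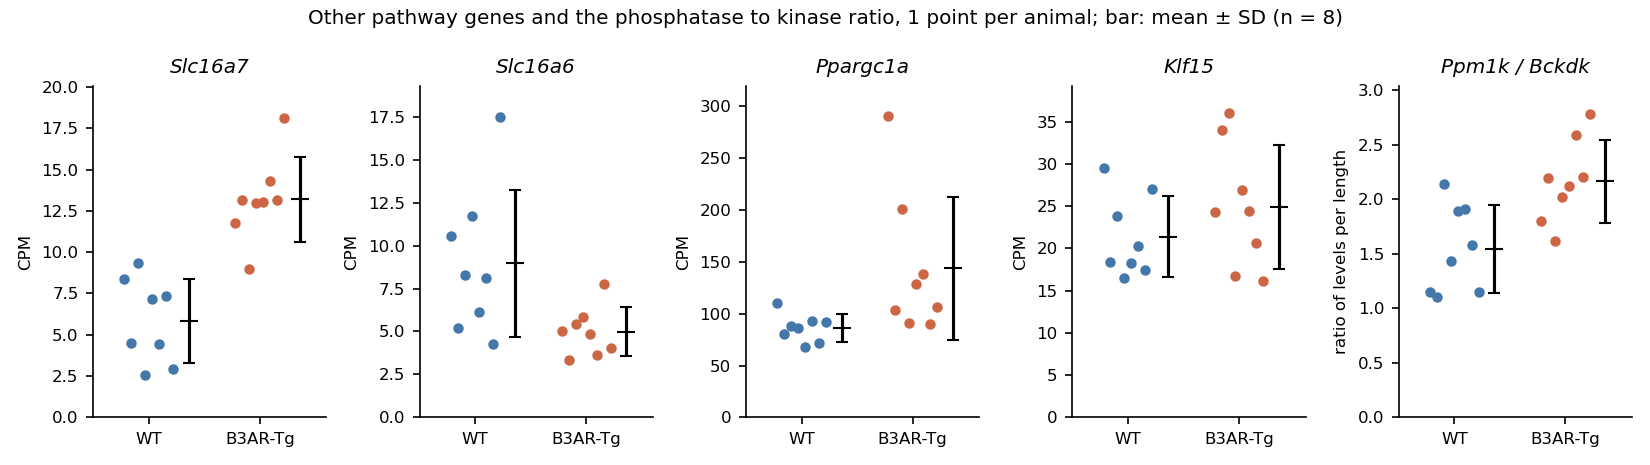
CPM of Slc16a7, Slc16a6, Ppargc1a and Klf15 and the ratio of Ppm1k to Bckdk per length (vertical axes starting at 0), 1 point per animal with the mean and SD of 8 animals as a bar. Slc16a7 is nearly separated between the genotypes, and 2 B3AR-Tg animals stand apart in Ppargc1a.

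The 11 pathway genes left out by the filter included the ketone receptors Hcar2 (0 to 2 counts) and Ffar3 (0 in all 16 animals), the testis-type paralogs Oxct2a (0 to 1 counts) and Oxct2b (0 to 2 counts), and the cytosolic transaminase Bcat1 (0 to 3 counts). Nearly all counts of the transaminase pair were thus those of Bcat2. Counts for the lactate exporter Slc16a3 ran from 1 to 52 in WT and from 0 to 6 in B3AR-Tg, and this gene was not tested in the fit reported here.

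Animals of 1 genotype also differed among themselves in load genes, which allowed a comparison that leaves genotype out. The load score was the mean log2 CPM of 5 genes induced by pressure load (Nppa, Nppb, Myh7, Acta1 and Ankrd1), and it reads transcripts, not pressure. It ran from 0.06 to 2.02 in WT and from -1.81 to 0.30 in B3AR-Tg, so that the genotypes overlapped through 1 animal, B3AR-Tg replicate 7. Within the 8 WT animals, 0 of the 10 genes passed edgeR's test for a slope on the score, against 2.92% of 11228 tested genes. Of the 10 slopes 7 were negative, with a median of -0.11. At an unadjusted p under 0.05 there were 3 of the 10, Ppm1k, Dbt and Bckdhb, against 17.7% of all tested genes.

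Ppm1k had a slope of -0.32 ± 0.0872 (SE) log2 units per unit of score in WT (edgeR adjusted p = 0.0636). WT replicates 2, 4 and 8 had the scores 2.02, 1.90 and 1.78 and Ppm1k levels of 129.4, 165.5 and 137.9 CPM. WT replicates 3, 6 and 5 had the scores 0.06, 0.11 and 0.35 and levels of 204.0, 214.9 and 211.8 CPM. WT replicate 1, with a score of 0.86, stood at 133.6 CPM, well below WT replicate 7 at 213.7 CPM with a score of 0.71, so the level did not follow the score evenly. The slope passed the test without WT replicate 1 or 4 (edgeR adjusted p between 0.0398 and 0.0476) and with Nppa alone as the score (adjusted p = 0.0363).

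Dbt had a slope of -0.31 ± 0.0878 (SE) in WT (edgeR adjusted p = 0.0695), which passed without WT replicate 2 (adjusted p = 0.0360) and with Nppa alone as the score (adjusted p = 0.0315). Its WT values fell in the same separate ranges, with replicates 1, 2, 4 and 8 at 51.4, 57.6, 50.2 and 45.4 CPM and replicates 3, 5, 6 and 7 at 71.5, 71.8, 80.3 and 79.0 CPM. Because both genes split the WT animals in this way, no correlation between them is given. The slope of Bckdhb was -0.22 ± 0.0904 (SE; edgeR adjusted p = 0.213). Bdh1 had the opposite sign, 0.13, with an adjusted p of 0.566 in edgeR's test.

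**Figure D4:**
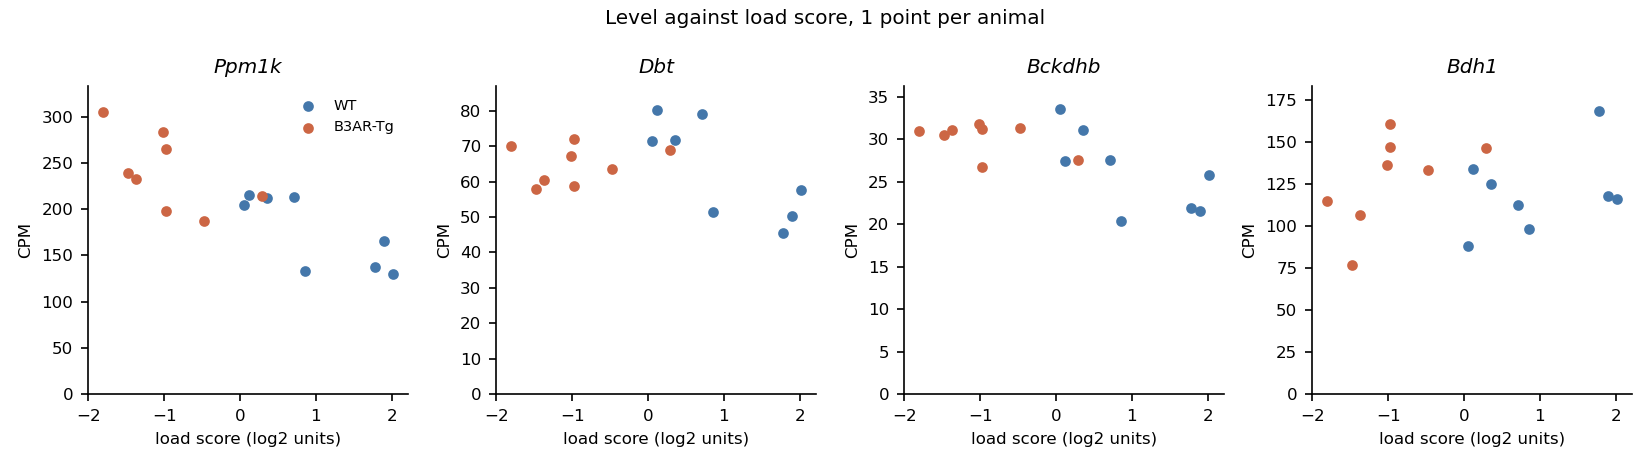
Level in CPM (vertical axes starting at 0) of Ppm1k, Dbt, Bckdhb and Bdh1 against the load score in log2 units (horizontal axis, centred over all 16 animals), 1 point per animal, WT in blue and B3AR-Tg in orange. The WT points with the 3 highest scores (1.78 to 2.02) sit at 129.4 to 165.5 CPM for Ppm1k, and the B3AR-Tg points of Dbt stay between 57.8 and 72.0 CPM.

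Within the 8 B3AR-Tg animals no gene of the 11767 tested passed edgeR's test for a slope on the score (0%). An unadjusted p under 0.05 was reached by 4.67% of all tested genes and by none of the 10. Recovery of slopes was simulated in WT only, at 21.5% for slopes of 0.5. An absence of calls here therefore does not show an absence of relation. The slope of Ppm1k was -0.22 and that of Dbt 0.04 (edgeR adjusted p = 0.999 for both). The difference between the slopes of the genotypes was not tested. Among the other branched-chain amino acid genes in WT, 17 of 21 slopes were negative (81.0%, against 50.3% of all tested genes). Among all 21, Mcee, the methylmalonyl-CoA epimerase, was lower with a higher score (slope -0.36, edgeR adjusted p = 0.0240) and Slc3a2, the heavy chain of a large amino acid transporter, was higher (0.40, adjusted p = 0.0366). In all 11 of these 21 genes had an unadjusted p under 0.05 in WT, against 17.7% of all tested genes. Over the 38 other pathway genes tested it was 17, and the remaining call was Etfb, a subunit of the electron transfer flavoprotein, which was also lower with a higher score (slope -0.35, edgeR adjusted p = 0.0188). These 3 are named because they were the only calls among the 38, after their values were seen. The mitochondrial reference list had 8 of 10 negative slopes and 0 calls.

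Covariation among the 10 genes was examined in each genotype over 45 pairs, or 90 relations. None passed Benjamini-Hochberg adjustment, and 12 had an unadjusted p under 0.05 in a two-sided exact permutation test of r. The pair Bdh1 and Oxct1, consecutive enzymes of ketone use, had Pearson's r of 0.808 in WT (exact permutation p = 0.0111, adjusted 0.307) with Spearman's rho of 0.738 (exact p = 0.0458). For the transgenic animals r was 0.871 (exact permutation p = 0.00548, adjusted 0.307) with rho of 0.762 (exact p = 0.0368). Without the 2 animals farthest from the median of Bdh1, the WT value was 0.640 (exact permutation p = 0.168). The B3AR-Tg value was then 0.479 (exact permutation p = 0.326). Leaving out the farthest animals narrows the range of Bdh1 and leaves fewer animals. These lower values therefore cannot show whether the relation rests on those animals. Such relations were not particular to this pair. Bckdha and Ivd had r of 0.725 in WT (exact permutation p = 0.0414) and 0.721 in B3AR-Tg (exact permutation p = 0.0454). In WT, Acat1 and Bcat2 had a larger r, 0.841 (exact permutation p = 0.00972, adjusted 0.307). Every pair shares library size and scaling across its animals, and the median r over the 45 pairs was 0.422 in WT and 0.347 in B3AR-Tg. Neither this median nor the share of relations under 0.05 was computed for pairs of all tested genes. Whether the 10 genes covary more than other genes was thus not tested.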

How the data were processed

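RNA from ventricular myocytes of 16 mice (8 per genotype) was quantified as gene counts, whole numbers that the authors deposited without normalization. Salmon and GRCm39 are named in the submitters' processing notes without a role, so the counts may be rounded estimates that split reads among similar genes such as paralogs. The annotation release and strand setting are not given in the sources used here. All 16 columns carried the animal names in the labels. No symbol was given for 94 rows.

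Counts were filtered (edgeR filterByExpr, minimum 10 counts, total 15), scaled by TMM and tested with edgeR 4.0.16 (R 4.3.3) between genotypes, two-sided, with Benjamini-Hochberg adjustment over all tested genes and a threshold of 0.05. CPM values in the text use TMM-scaled library sizes and no prior count, and scores use a prior count of 2. The load score was tested within each genotype, centred on that genotype's mean. The tests were checked on simulated data. Between genotypes edgeR recovered 87.5% of 200 genes given a log2 difference of 1. It recovered 39% of 200 given 0.5, where 3.70% of its calls were false. For load slopes of 0.5 in 8 WT animals it recovered 21.5% of 200 genes, and 8.51% of its calls were false. Recovery of differences or slopes between 0 and 0.5 was not tested. Correlations used scipy 1.17.1. DESeq2 1.42.0 and limma 3.58.1 served as alternatives, beside other scaling, filters, covariates and leaving out each animal. Within a genotype no 2 libraries agreed within sampling noise (chi-square per gene 6.21 to 57.4 over 56 pairs).

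The 10 genes, the other lists and the tests were chosen with earlier results of these data known. Named by rule beyond the 10 were the pathway genes past the threshold between genotypes, Klf15, and Nppa and Myh7 as load values, and any other gene is marked in the text. A listed gene is counted in its lists but not reported here by name. Gene lengths are from GENCODE M21 (GRCm38) by gene ID, and coordinates are printed only for RefSeq windows of that build.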

Additional observations from a re-analysis of the deposited data

Results flagged for a closer look

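Among the 28 groups of 8 animals examined (the 10 genes, Slc16a7, Slc16a6, Ppargc1a and Klf15 in each genotype), 1 held an animal far from the others. Bckdk in B3AR-Tg replicate 7 stood at 59.4 CPM, below the 67.0 to 74.0 CPM of the other 7, a gap of 0.549 of the range of the group on the log2 scale. Chance alone marks about 1 group in 20, or 1.4 of 28. The same animal had the highest load score of its genotype, 0.30. Whether that bears on its Bckdk level was not tested.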

How the results depend on the processing

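The number of genes called over the whole table, 537, was 840 with DESeq2, 230 with the replicate block, 908 at an adjusted p under 0.1, 12 with the non-myocyte marker level as a covariate and 7 with the load score as one. It ran from 272 to 675 over single animals left out, lowest without WT replicate 4 and at 277 and 345 without B3AR-Tg replicates 5 and 8. Of the 10 genes 0 were called, and 1, Ppm1k, was with library size alone, without mitochondrial genes, without the filter, with DESeq2, with limma voom weights and at an adjusted p under 0.1, and 0 to 1 over animals left out. Ppm1k was called without WT replicates 3, 5, 6 or 7 or B3AR-Tg replicates 1, 3 or 7 (adjusted p 0.0330 to 0.0472) and not without the other 9 (0.0682 to 0.110), with log2 fold changes of 0.40 to 0.50 throughout. In place of 3 other pathway genes, calls numbered 5 with library size alone, 6 with DESeq2, 6 at an adjusted p under 0.1, 0 with either covariate, and 1 to 3 over animals left out. Slc16a7 kept its call without any single animal (adjusted p 0.00252 to 0.0144), Ppargc1a lost it in 10 of 16 and Slc16a6 in 12 of 16. In WT the load score was related to 2 of the 10 genes (Dbt and Ppm1k) with Nppa alone as the score, and to 0 to 1 over animals left out (Ppm1k without WT replicate 1 or 4, Dbt without WT replicate 2). With the non-myocyte level as a covariate the log2 fold change turned to -0.064 for Bdh1, -0.18 for Acat1, -0.10 for Bcat2 and -0.056 for Dbt. With the load score it turned to 0.082 for Oxct1, -0.19 for Acat1, -0.086 for Bcat2, -0.095 for Bckdhb, -0.27 for Dbt and -0.079 for Ppm1k. Library size alone turned Oxct1 to 0.063 and Bckdk to 0.019, no filter turned Oxct1 to 0.0054, and the animal number as a covariate turned Acat1 to -0.016. With library size alone the median of all tested genes moved too, to 0.084 from 0.0060 in the main fit. Over animals left out Oxct1 ran from -0.036 to 0.016, Acat1 from -0.023 to 0.052 and Dbt from -0.022 to 0.093. In B3AR-Tg the load slope of Dbt was -0.012 with voom and ran from -0.0095 to 0.11 over animals left out, and that of Bckdhb was 0.0058 with Nppa alone and 0.014 without the 2 farthest animals. The cause of these shifts was not tested. The marker level was itself correlated with genotype (r = -0.709), and standard errors grew beside the covariates (for Ppm1k 0.169 with the load score against 0.131). The load score differed by genotype too, at 0.974 ± 0.815 (SD, n = 8) in WT and -0.974 ± 0.652 in B3AR-Tg. Both covariates therefore share part of the genotype difference.

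Same-numbered animals did not deviate together (correlations -0.219 to 0.0935, 0 of 8 best matched to their number), so the replicate block, with 230 calls and 0 among the 10 genes, does not stand for known pairs. Precision is limited: the median standard error of the 10 log2 fold changes was 0.101 with 8 animals per genotype. The parts of the spread between animals and of their number in it were not tested. The lowest count of any of the 10 genes was 170, and the part of depth was not tested.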

Other observations

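The 3 branches downstream of the dehydrogenase complex, the propionyl-CoA steps, the electron carriers and the amino acid transporters held no gene past the threshold between genotypes in edgeR's test. Their median log2 fold changes are given here, with no test between groups of genes. The leucine branch had a median of 0.21 (3 genes tested), the isoleucine branch 0.03 (3 genes) and the valine branch 0.10 (4 genes), each with 1 estimate below 0. The 6 genes of the propionyl-CoA steps, which carry isoleucine and valine carbon toward the citric acid cycle, all had estimates above 0, with a median of 0.10. The 3 genes of the electron transfer flavoprotein and its dehydrogenase, which take electrons from IVD and other acyl-CoA dehydrogenases, had a median of 0.29. Of the 4 tested transporter genes 3 had estimates below 0, with a median of -0.12. Among all tested genes 51.1% of estimates were above 0. An unadjusted p under 0.05 was reached by 1 gene in each of these groups other than the transporters, which had 0, against 19.3% of all tested genes.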
